A study of Mus musculus with 9 samples.

Results

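MHC class I and immunoproteasome genes were followed in mouse acute myeloid leukemia (AML) cells during induction of the reprogramming factors Oct4, Sox2, Klf4 and Myc (OSKM). These were 10 genes, H2-K1, H2-T23, B2m, Tap1, Tap2, Tapbp, Psmb8, Psmb9, Psmb10 and Nlrc5, out of 22180 genes with a probe set of their own on the array. They were chosen by name, with earlier results of these data known. Each gene was represented by the probe set that the platform annotation gives to that gene alone, and Tapbp, which had more than 1 such probe set, by the one with the highest mean over the 9 arrays. All 10 members were measured, and no filter on low values was applied.

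The leukemia cells, called MLL-AF9-OSKM, carried the human MLL-AF9 fusion gene with a GFP tag and the OSKM factors under the tetO promoter, which doxycycline (Dox) switches on. They were grown in sub-lethally irradiated C57BL/6J recipient mice, and leukemia cells were sorted from the spleen of mice without Dox (control, 3 arrays), after Dox in the drinking water for 48 h (Dox 48 h, 3 arrays) and after 72 h (Dox 72 h, 3 arrays). All 3 groups had the fusion gene and the factors, and no Dox was given to the controls, so what the drug did and what the factors did cannot be told apart. The labels call the replicates biological without tying each one to its own mouse, and p-values then measure the spread between these samples. Fewer cells of a type and less RNA per cell cannot be told apart in bulk RNA.

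MHC class I molecules show peptides from inside the cell to CD8+ T cells, and their absence can be read by NK cells. The peptides are cut by the proteasome, pumped into the endoplasmic reticulum by the TAP transporter, and loaded onto a heavy chain paired with beta-2-microglobulin. Interferons raise the transcription of these genes in many cell types and place the immunosubunits Psmb8, Psmb9 and Psmb10 in newly made proteasomes in place of the constitutive catalytic subunits Psmb5, Psmb6 and Psmb7.

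The arrays themselves were alike in scale, with a median log2 signal of 3.71 to 3.869, and every value of the 10 members lay above the median of its array. Klf4, 1 of the induced factors, had a log2 signal of 4.63 to 5.13 on the control arrays, 7.74 to 7.92 at 48 h and 6.71 to 6.89 at 72 h, so every array went with its label. The summed signal of 11 markers of leukemia and myeloid cells (log2) was 13.75 to 13.93 in control, 13.97 to 14.07 at 48 h and 13.79 to 13.97 at 72 h. Of these, Ptprc, Itgam, Mpo, Hoxa9, Meis1, Cd33, Ly6c2 and Spi1, named with their values known, had a log2 signal of 8.98 or more on all 9 arrays. Csf1r, Cebpa and Kit were not among those named, so this choice rests on the values themselves. Within 2 groups an array stood apart in the members. The mean of the 10 members, each centred on its own mean over the 9 arrays, was -0.70, -0.63 and -0.18 in control 1 to 3, 0.27, 0.15 and -0.42 in Dox 48 h 1 to 3, and 0.43, 0.67 and 0.40 in Dox 72 h 1 to 3. Control 3 was thus the highest control, and Dox 48 h 3 lay below control 3.

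At 72 h of Dox the antigen presentation genes were higher than in control. All 10 members had a positive log2 fold change, from 0.41 (B2m) to 1.52 (Nlrc5), with a median of 1.11, beside a median of -0.008 over all 41345 probe sets. The 3 arrays at 72 h lay above the 3 control arrays for 10 of 10 members, which was the case for 9.1% of all probe sets. Because the members were chosen with earlier results of these data known, such shares are a description and not a test. By limma with Benjamini-Hochberg adjustment over all probe sets, 5 members rose at an adjusted p under 0.05: H2-T23, Psmb10, Tap1, Psmb8 and Tap2. Over all probe sets, 1.16% rose and 1.33% fell by this test. With each array centred on its median instead, 633 probe sets rose and 398 fell, beside 479 and 549 on the deposited values, and 7 members rose. No member fell under either scaling.

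**Figure D1:**
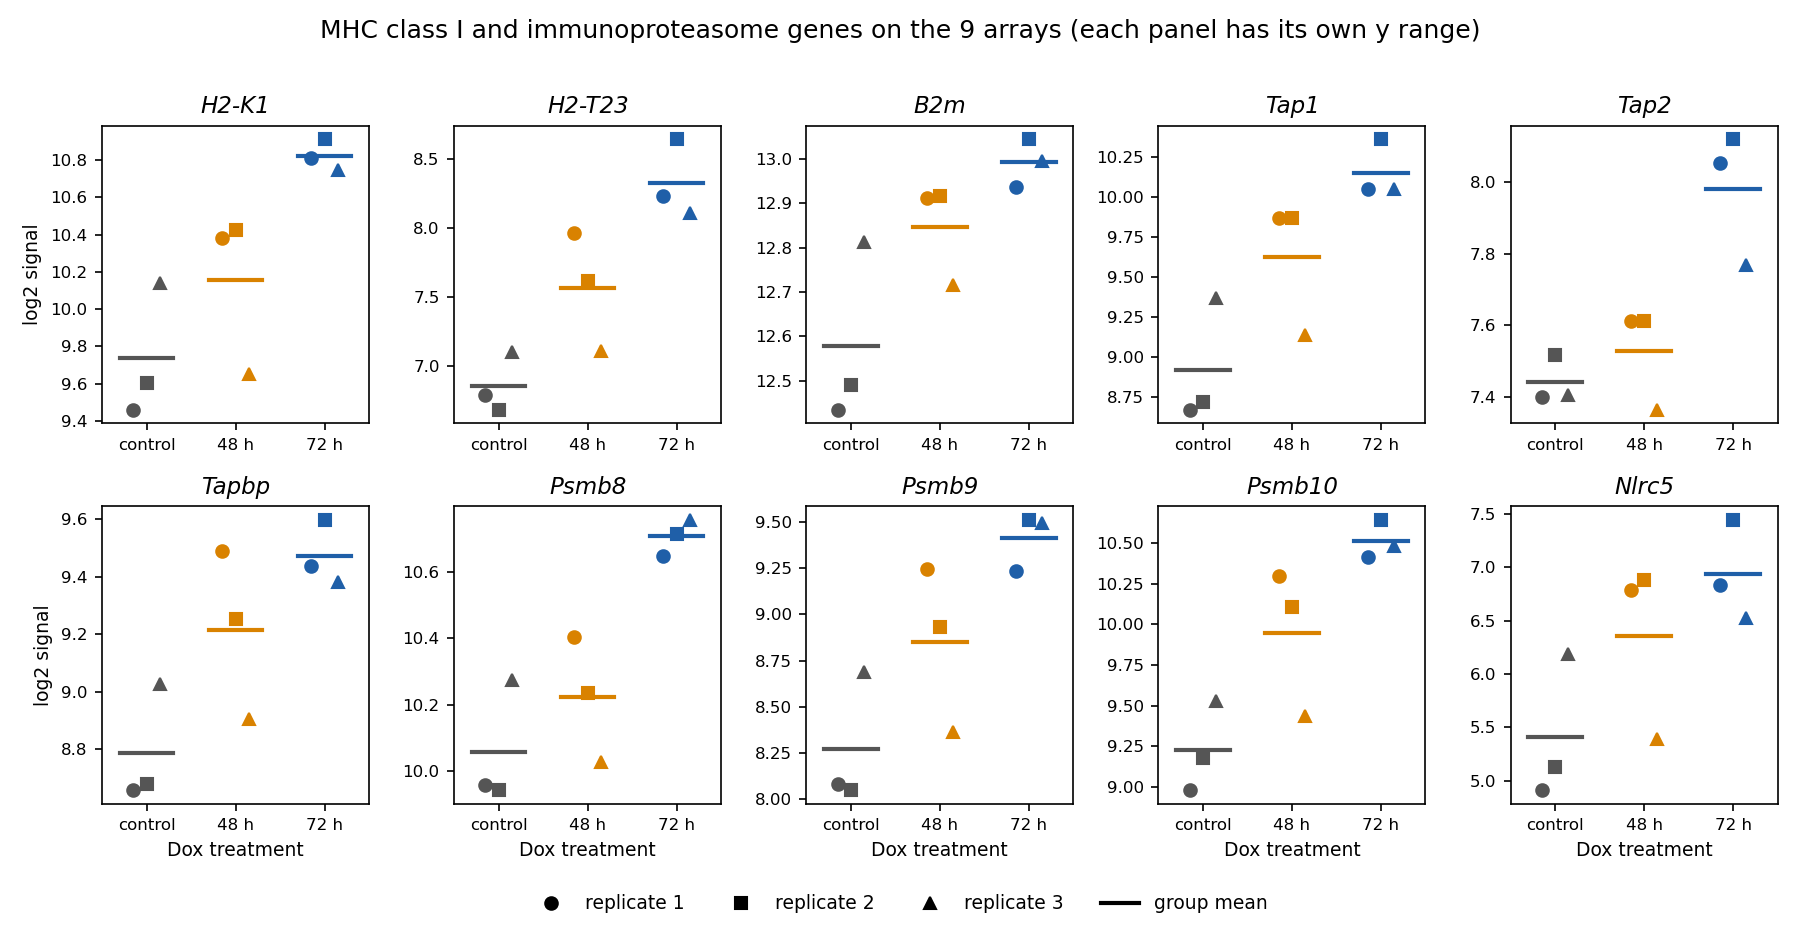
Log2 signal (y axis, its own range for each gene) of the 10 genes on each of the 9 arrays, in control, Dox 48 h and Dox 72 h (x axis); symbols are replicates 1 to 3 and bars are group means. All 3 arrays at 72 h lie above all 3 controls in each of the 10 panels, and Dox 48 h 3 is the lowest 48 h array in each.

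At 48 h no member passed the threshold, and 0 of 10 were called in either direction, beside 1.12% of all probe sets called higher and 0.481% called lower. All 10 had a positive log2 fold change, from 0.09 (Tap2) to 0.94 (Nlrc5), with a median of 0.50 beside -0.015 over all probe sets. The unadjusted p was under 0.05 for 6 members, all higher, and for 5.25% of all probe sets in that direction. The 48 h arrays lay above the controls without overlap for 1 member, H2-T23 (7.37% of all probe sets). Without control 3 and Dox 48 h 3, a setting chosen after seeing the data, the median was 0.95 and 3 members rose at 48 h: H2-K1, Tap1 and Psmb10. Those arrays lay nearest the other group in the members, so leaving them out widens the difference, and these calls are no support.

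Between the time points, all 10 members were higher at 72 h than at 48 h by 0.15 (B2m) to 0.76 (H2-T23), with a median of 0.55 beside 0.002 over all probe sets. Here again 0 of 10 passed the threshold, beside 0.00726% of all probe sets called higher and 0.208% called lower. The unadjusted p was under 0.05 for 6 members, beside 5.21% of all probe sets higher at that level. The 72 h arrays lay above the 48 h arrays without overlap for 7 members, beside 7.13% of all probe sets. Without Dox 48 h 3 the median difference was 0.32. The test over all 3 groups at once, limma's moderated F, called 1 member, H2-T23 (adjusted p = 0.0390), beside 2.24% of all probe sets.

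**Figure D2:**
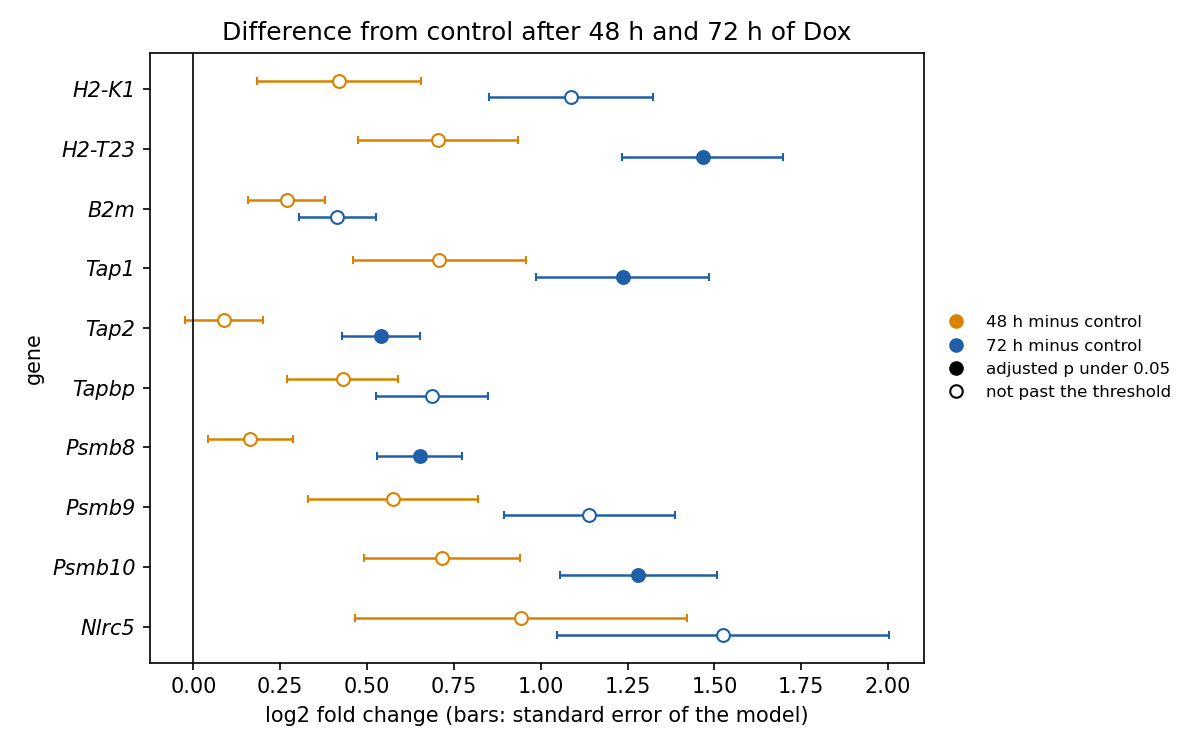
Log2 fold change against control (x axis) of the 10 genes (y axis) after 48 h and 72 h of Dox, with bars for the standard error of the limma model over 9 arrays; filled points have an adjusted p under 0.05. All 20 points lie above 0, and the 5 filled ones, at 72 h, are H2-T23, Tap1, Tap2, Psmb8 and Psmb10.

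The calls at 72 h depended on single arrays. Without control 3 there were 7 called members, and without Dox 48 h 3 there were 6. Without Dox 48 h 1 there were 3, without Dox 72 h 3 there were 2, and without Dox 48 h 2 or Dox 72 h 1 there was 1. Without control 1, control 2 or Dox 72 h 2 none was called. The calls over all probe sets moved as well. With all 9 arrays 479 probe sets rose, and in these fits 131 (without control 1) to 375 (without Dox 48 h 1). Without control 2 there were 166, and without Dox 72 h 2 there were 220. H2-T23 was called in 6 of these 9 fits, Psmb8 and Psmb10 in 3 each, Tap1 in 2 and Tap2 in 1. The log2 fold changes moved less than the calls, for example from 1.31 to 1.59 for H2-T23 and from 1.16 to 1.43 for Psmb10, and all 10 members remained positive in each fit.

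Of the 10 members, 7 lie on chromosome 17, in the mouse MHC, and 3 elsewhere: B2m on chromosome 2 and Psmb10 and Nlrc5 on chromosome 8. Psmb9, Tap1, Psmb8 and Tap2 are neighbours, in this order and with no other protein-coding gene between them (RefSeq, GRCm38.p6). Promoter windows of 250 bases before to 50 after the start were given by RefSeq for 8 members, and Tap2 and Nlrc5 are named only. The upstream bases of 4 stretches are shown because they hold the matches to interferon-linked motifs, or because 2 members share them. In each, read 5′ to 3′, capitals mark matches on either strand to the core of the interferon-stimulated response element (ISRE: GAAA, any 2 bases, GAAA), to the gamma-activated site (GAS: TTC, any 3 bases, GAA) or to CCAAT, the box bound by NF-Y. The sequences come from chr2:122147437-122147686 (B2m, plus strand), chr17:36032702-36032951 (H2-T23, minus strand), chr17:34187331-34187555 (the stretch between Tap1 on the plus and Psmb9 on the minus strand, written along the plus strand) and chr17:34197945-34198194 (Psmb8, plus strand).
B2m: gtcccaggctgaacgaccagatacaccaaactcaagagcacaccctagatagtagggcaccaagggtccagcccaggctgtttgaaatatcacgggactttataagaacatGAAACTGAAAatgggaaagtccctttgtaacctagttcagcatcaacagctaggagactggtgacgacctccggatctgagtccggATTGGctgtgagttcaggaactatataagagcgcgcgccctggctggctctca
H2-T23: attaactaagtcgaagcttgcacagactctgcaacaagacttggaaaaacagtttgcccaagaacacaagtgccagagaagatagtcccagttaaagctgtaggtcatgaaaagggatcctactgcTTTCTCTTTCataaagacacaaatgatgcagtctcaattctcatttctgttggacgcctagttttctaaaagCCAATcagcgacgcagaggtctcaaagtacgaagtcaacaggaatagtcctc
Tap1/Psmb9: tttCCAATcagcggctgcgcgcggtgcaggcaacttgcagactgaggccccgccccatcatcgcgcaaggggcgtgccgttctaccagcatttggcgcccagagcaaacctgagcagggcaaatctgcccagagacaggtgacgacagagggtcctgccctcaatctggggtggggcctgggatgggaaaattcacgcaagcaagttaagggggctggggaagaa
Psmb8: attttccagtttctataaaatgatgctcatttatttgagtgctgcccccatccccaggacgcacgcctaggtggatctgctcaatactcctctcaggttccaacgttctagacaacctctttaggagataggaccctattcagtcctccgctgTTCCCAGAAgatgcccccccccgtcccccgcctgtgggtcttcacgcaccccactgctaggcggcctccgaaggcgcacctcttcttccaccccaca

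The ISRE core was found in 2 of the 8 members with a window, B2m at positions -139 to -130 from the start and H2-T23 at -124 to -115. H2-K1 had 2 windows, so these counts are per member and the shares per window. It was present in 3.43% of 32817 promoter windows of the same length. The GAS pattern was found in the window of Psmb8 (-97 to -89) and in 8.29% of all windows. CCAAT was found in 6 of the 8 members, H2-K1 (both windows), H2-T23, B2m, Tap1, Tapbp and Psmb9, and in 37.4% of all windows. In B2m and H2-T23 the CCAAT match lay at -53 to -49 and -52 to -48. None of the 3 motifs was matched in the window of Psmb10. No base overlapped between matches of different motifs. Tap1 and Psmb9 start on opposite strands with 225 bases between them, and the same CCAAT letters lie at -222 to -218 from the start of Tap1 and at -8 to -4 from that of Psmb9. A match is a description of letters only. Only exact matches were searched, so a window without one, as that of H2-K1 for the ISRE core, is not shown to lack such an element.

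Nlrc5 is the transactivator of MHC class I genes, which it reaches through a complex that includes NF-Y. Its log2 signal was 4.91, 5.13 and 6.19 in the controls, 6.79, 6.88 and 5.39 at 48 h, and 6.83, 7.45 and 6.53 at 72 h. Control 3 was more than 1 unit above the other controls, and Dox 48 h 3 lay between control 2 and control 3. Nlrc5 had the largest difference of the 10 at 72 h, 1.52 ± 0.478 (SE; 2.88-fold), and also the largest error, and did not pass the threshold (adjusted p = 0.156). At 48 h it differed by 0.94 (adjusted p = 0.587), and by 1.43 without Dox 48 h 3. Without control 3 its difference at 72 h was 1.91 (adjusted p = 0.115), and without both arrays, a setting chosen after seeing the data, it passed the threshold (adjusted p = 0.0462). That setting drops the arrays nearest the other group, so its p-value is no support for a rise.

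The classical heavy chain H2-K1 carries the peptide at the cell surface. Its log2 signal was 9.46, 9.61 and 10.14 in the controls, 10.38, 10.43 and 9.65 at 48 h, and 10.81, 10.91 and 10.75 at 72 h. The 72 h arrays were above all others and close together, whereas Dox 48 h 3 fell within the range of the controls. The log2 fold change of H2-K1 was 0.42 ± 0.236 at 48 h (adjusted p = 0.641). At 72 h it was 1.09 ± 0.236 (2.12-fold, adjusted p = 0.0575). It was called at 72 h without control 3 (adjusted p = 0.0493) or without Dox 48 h 3 (adjusted p = 0.0342). At 48 h its value was 0.67 without Dox 48 h 3. Leaving out control 3 as well, a setting chosen after seeing the data, gave 0.87 (limma adjusted p = 0.0317). Both arrays lay nearest the other group in the members, so this p-value is no support for a rise.

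H2-T23 encodes Qa-1, a nonclassical class I molecule that presents leader peptides of other class I chains to the NKG2A receptor. Its log2 signal was 6.79, 6.68 and 7.10 in the controls, 7.96, 7.61 and 7.11 at 48 h, and 8.23, 8.64 and 8.10 at 72 h. The groups did not overlap in any of the 3 comparisons, although Dox 48 h 3 was only just above control 3. H2-T23 rose by 1.47 ± 0.231 at 72 h (2.76-fold, adjusted p = 0.0207), the largest rise among the called members. Leaving out 1 array at a time, its adjusted p ran from 0.0179 to 0.0902, and it was lost without control 1, control 2 or Dox 72 h 2. At 48 h the difference was 0.70 (adjusted p = 0.287), and from 48 h to 72 h it was 0.76 (adjusted p = 0.258).

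B2m, the light chain shared by all class I molecules, had a log2 signal of 12.43, 12.49 and 12.81 in the controls, 12.91, 12.92 and 12.72 at 48 h, and 12.94, 13.04 and 13.00 at 72 h. It was the member that differed least at 72 h, by 0.41 ± 0.111 (1.33-fold, adjusted p = 0.105), although its arrays did not overlap with the controls. By mean signal, 99.94% of probe sets were dimmer or equal, and whether signals this bright were compressed on the array was not tested. Without control 3, B2m passed the threshold (0.53, adjusted p = 0.0440).

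Closely related heavy chain genes were read beside H2-K1 and H2-T23. For this and the later lists, 1.16% of all probe sets rose and 1.33% fell at 72 h, with a median of -0.008. At 48 h, 1.12% rose and 0.481% fell, with a median of -0.015. Of 14 other class I heavy chain genes with a probe set of their own, 3 rose at 72 h and none fell: H2-M3, which presents formylated peptides (1.42 ± 0.27, adjusted p = 0.0394), H2-T24 (1.16 ± 0.23, adjusted p = 0.0460) and H2-T10 (1.03 ± 0.21, adjusted p = 0.0457). The median of the 14 was 0.23, and 9 were positive. These 3 calls were all lost without control 1, control 2, Dox 48 h 2 or any single Dox 72 h array. At 72 h the unadjusted p by limma was under 0.05 for 7 of the 14 higher and 1 lower. The lower one, H2-Q10, named after its value was seen, lay below the controls without overlap (-0.78 ± 0.25, adjusted p = 0.166). A further 6 probe sets are shared by several class I genes of the H2-D, H2-Q or H2-T groups, so their signal belongs to no single gene; their log2 fold changes ran from -0.07 to 2.03 with a median of 1.38, and 1 of them rose. H2-D1 was read only by shared probe sets and is not analysed here. Heavy chain genes are alike in sequence, and cross-hybridization between them was not tested. Of 7 class I-like genes outside the H2 complex, none passed the threshold at either time by limma, and the unadjusted p was under 0.05 for 1 at 48 h and 1 at 72 h. Fcgrt, the neonatal Fc receptor, differed by 1.16 at 48 h (adjusted p = 0.144), and Cd1d2, which presents lipids, by -0.26 (adjusted p = 0.662).

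Tap1 and Tap2 form the peptide transporter. Tap1 had a log2 signal of 8.67, 8.72 and 9.37 in the controls, 9.87, 9.87 and 9.14 at 48 h, and 10.05, 10.36 and 10.05 at 72 h. It rose by 1.24 ± 0.249 at 72 h (2.36-fold, adjusted p = 0.0461), a call that was kept only without control 3 or Dox 48 h 3 when 1 array was left out. At 48 h it differed by 0.71 (adjusted p = 0.333), and Dox 48 h 3 lay below control 3.

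Tap2 moved on a smaller scale. Its log2 signal was 7.40, 7.52 and 7.41 in the controls, 7.61, 7.61 and 7.36 at 48 h, and 8.05, 8.12 and 7.77 at 72 h. Control 3 did not stand out here, and Dox 72 h 3 was the lowest of its group. Tap2 rose by 0.54 ± 0.112 at 72 h (1.45-fold, adjusted p = 0.0499) and differed by 0.09 at 48 h (adjusted p = 0.887). The call at 72 h was kept only without Dox 72 h 3 (0.65, adjusted p = 0.0351).

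Tapbp, or tapasin, bridges the transporter and the empty class I molecule. Its log2 signal was 8.66, 8.68 and 9.03 in the controls, 9.49, 9.25 and 8.91 at 48 h, and 9.44, 9.60 and 9.38 at 72 h. Dox 48 h 1 was as high as the 72 h arrays and Dox 48 h 3 was within the controls. The difference at 72 h was 0.69 ± 0.161 (1.61-fold, adjusted p = 0.0730). A second, dimmer probe set of Tapbp alone had the same sign, with 0.26 at 72 h (adjusted p = 0.165).

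Other genes of peptide loading and trimming in the endoplasmic reticulum did not pass the threshold at 72 h (0 of 11 measured by limma, median 0.18, with an unadjusted p under 0.05 for 4, all higher). The 1 call among them was at 48 h, for Sppl2a, a protease of the membrane (0.48 ± 0.07, adjusted p = 0.0187). Its log2 signal was 8.44 to 8.64 in control, 9.02 to 9.07 at 48 h and 8.73 to 8.84 at 72 h, so that it was lower at 72 h than at 48 h without overlap (adjusted p = 0.273). Values of 3 further genes of the list are given after they were seen. The peptide editor Tapbpl, a relative of tapasin, differed by 0.90 at 72 h (adjusted p = 0.120), the trimming peptidase Erap1 by 0.26 (adjusted p = 0.466) and the chaperone Calr by 0.11 (adjusted p = 0.476).

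The immunosubunits were higher at 72 h and 2 of 3 passed the threshold. Psmb8, the chymotrypsin-like immunosubunit (LMP7), had a log2 signal of 9.96, 9.94 and 10.27 in the controls, 10.40, 10.24 and 10.03 at 48 h, and 10.65, 10.72 and 10.76 at 72 h. The 72 h arrays stood clear of the other 6, among which control and 48 h overlapped. Psmb8 rose by 0.65 ± 0.122 at 72 h (1.57-fold, adjusted p = 0.0371), and differed by 0.16 at 48 h (adjusted p = 0.759).

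Psmb9, or LMP2, had a log2 signal of 8.08, 8.05 and 8.69 in the controls, 9.24, 8.93 and 8.37 at 48 h, and 9.24, 9.51 and 9.49 at 72 h. Dox 48 h 1 reached the lowest 72 h array and Dox 48 h 3 lay below control 3. Its difference at 72 h, 1.14 ± 0.245 (2.20-fold), missed the threshold (adjusted p = 0.0556) and passed it without control 3 (adjusted p = 0.0494) or Dox 48 h 3 (adjusted p = 0.0412).

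Psmb10, or MECL-1, had a log2 signal of 8.98, 9.18 and 9.53 in the controls, 10.295, 10.103 and 9.439 at 48 h, and 10.41, 10.64 and 10.48 at 72 h. It rose by 1.28 ± 0.225 at 72 h (2.43-fold, adjusted p = 0.0301) and differed by 0.72 at 48 h (adjusted p = 0.262). Both Psmb8 and Psmb10 kept the call at 72 h without control 3, Dox 48 h 1 or Dox 48 h 3 and lost it without any one of the other 6 arrays, with an adjusted p of up to 0.133 for Psmb8 and 0.113 for Psmb10.

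The constitutive partners did not pass the threshold at either time by limma, and 1 of the 3, Psmb5 at 72 h, had an unadjusted p under 0.05. Psmb5 differed by 0.25 at 72 h (adjusted p = 0.275), Psmb6 by 0.11 (adjusted p = 0.563) and Psmb7 by 0.07 (adjusted p = 0.772). To set each immunosubunit against its partner within the same array, the change of their log2 ratio was compared between groups. At 72 h the ratio was higher than in control by 0.40 for Psmb8 over Psmb5, by 1.03 for Psmb9 over Psmb6 and by 1.21 for Psmb10 over Psmb7. In all 3 pairs the 72 h arrays did not overlap with the controls (exact permutation test, two-sided, p = 0.1, the smallest that 3 against 3 arrays allow, and 0.15 after adjustment over 9 comparisons). At 48 h the changes were 0.20, 0.56 and 0.76, and Psmb10 over Psmb7 alone did not overlap with control. Without control 2 the first of these was 0.12. From 48 h to 72 h they were 0.20, 0.47 and 0.45, and without Dox 48 h 3 they were 0.13, 0.22 and 0.26. This ratio shows unequal change of 2 probe sets and gives no proportion of proteasomes.

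**Figure D3:**
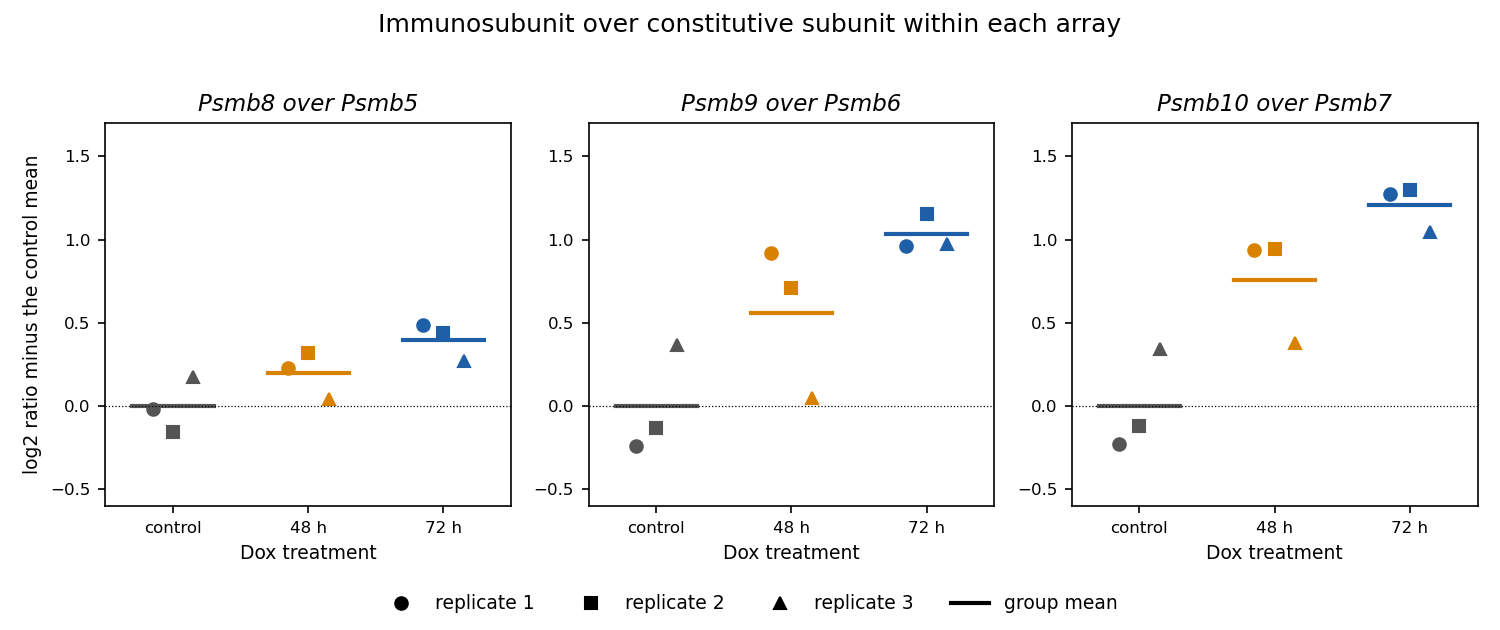
Log2 ratio of each immunosubunit to its constitutive partner within an array, minus the control mean (y axis), in control, Dox 48 h and Dox 72 h (x axis); symbols are replicates 1 to 3 and bars are group means. The 72 h arrays lie above the controls in all 3 pairs, by 0.40, 1.03 and 1.21 on average.

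Across the rest of the proteasome, none of 10 other 20S core subunits and none of 17 subunits of the 19S cap passed the threshold at 72 h, with medians of 0.11 and 0.05. At an unadjusted p under 0.05 limma gave 2 core subunits higher, and in the cap 1 higher and 1 lower. The core subunits with the smallest p were Psmb1 (0.25, adjusted p = 0.110) and Psma7 (0.40, adjusted p = 0.0698). In the cap they were Psmd14, a deubiquitinase (-0.28, adjusted p = 0.0804), and Psmd8 (0.27, adjusted p = 0.193). Of 9 activators and assembly factors, Pomp, the chaperone of proteasome assembly, rose by 0.39 ± 0.07 at 72 h (adjusted p = 0.0325), a call kept without Dox 48 h 1 or Dox 72 h 3 and lost without any one of the other 7 arrays. The PA28 genes Psme1 and Psme2, looked at after their values were known, differed by 0.33 (adjusted p = 0.314) and 0.28 (adjusted p = 0.363).

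Among 20 regulators of class I transcription, 5 rose at 72 h and none fell, with a median of 0.23. Irf8, a myeloid transcription factor, also rose at 48 h (0.80 ± 0.13, adjusted p = 0.0222) and was 1.28 ± 0.13 above control at 72 h (adjusted p = 0.00432). Its 48 h arrays, at 8.50, 8.12 and 8.23, all lay above the controls, at 7.45 to 7.54, and Dox 48 h 3 was not the lowest. Irf7, Irf9 and Stat2, which act downstream of type I interferon, rose at 72 h by 2.43 ± 0.31 (adjusted p = 0.0100), 1.13 ± 0.17 (adjusted p = 0.0193) and 0.96 ± 0.14 (adjusted p = 0.0141). Nfya, a subunit of NF-Y, was the fifth (0.40, adjusted p = 0.0394) and was named after its value was seen. So was Irf1, which acts on many class I promoters, at 1.49 ± 0.319 (adjusted p = 0.0551). Leaving out 1 array at a time, 2 to 6 of the 20 rose, with 2 without control 1.

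Of 13 interferon receptor and signaling genes, 4 rose at 72 h and 1 fell. The type I receptor chain Ifnar1 rose by 0.34 at 48 h (adjusted p = 0.0330) and lay 0.48 above control at 72 h (adjusted p = 0.00857), and the interferon gamma receptor chain Ifngr2 by 0.41 (adjusted p = 0.0367) and 0.49 (adjusted p = 0.0179). Usp18, a negative regulator of interferon signaling, rose by 3.43 ± 0.48 at 72 h (adjusted p = 0.0137), from 4.45 to 6.05 in control to 8.20 to 8.84. Il10rb rose by 0.45 (adjusted p = 0.0294). The gene that fell was Ifngr1, the other gamma receptor chain (-0.31, adjusted p = 0.0434), named after its value was seen. Between 1 and 4 of the genes rose when an array was left out, with 1 without control 1 or control 2.

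None of 14 interferon ligand genes passed the threshold in any comparison by limma, and at 72 h 1 was lower at an unadjusted p under 0.05. The smallest p values were those of Ifna4 (-0.78 at 72 h, adjusted p = 0.155) and Ifna2 (0.26, adjusted p = 0.376). Ifng had a log2 signal of at most 3.35 and Ifnb1 of at most 2.73 on the 9 arrays, below each array's median; both were picked for their role after their values were seen.

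Genes that interferons are known to raise were higher with the members. Of 19 type I interferon-stimulated genes, 12 rose at 72 h and 3 at 48 h, with medians of 1.41 and 0.91. Over all probe sets, 1.16% rose at 72 h and 1.12% at 48 h, with medians of -0.008 and -0.015. Oas3, a sensor of double-stranded RNA, rose by 1.48 ± 0.20 at 48 h (adjusted p = 0.0105) and 1.74 ± 0.20 after 72 h (adjusted p = 0.00647), and Ifit1 by 2.13 ± 0.35 (adjusted p = 0.0246) and 2.61 ± 0.35 (adjusted p = 0.0116). Oasl1 rose at 72 h by 1.58 ± 0.18 (adjusted p = 0.00611) and Cmpk2 by 1.40 ± 0.23 (adjusted p = 0.0255). Without single arrays the count at 72 h was 2 (control 1) to 11 (control 3), with 3 or 4 without control 2, Dox 48 h 2 or any one Dox 72 h array. Of 12 GTPases and chemokines raised by interferon gamma, all were positive at 72 h, with a median of 1.71, and 1 passed the threshold, Cxcl9, which attracts T cells (2.26 ± 0.46, adjusted p = 0.0473). The list had no call without control 1, 2 or 3, Dox 48 h 2 or any one Dox 72 h array, and 2 without Dox 48 h 1 or Dox 48 h 3.

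MHC class II presentation, which handles peptides from outside the cell, had 4 of 10 genes higher at 72 h and none lower, with a median of 0.85. Ctss, the endosomal protease cathepsin S, rose by 1.08 ± 0.13 at 48 h (adjusted p = 0.00763) and was 1.19 ± 0.13 above control at 72 h (adjusted p = 0.00612). H2-DMa, H2-Ob and H2-Aa rose at 72 h by 0.79 (adjusted p = 0.0227), 0.89 (adjusted p = 0.0304) and 2.27 (adjusted p = 0.0475). The count was 1 to 4 without single arrays, with 1 without control 1 or control 2. Of 7 genes of endosomal cross-presentation, none passed the threshold at 72 h and Cybb, the catalytic subunit of the phagocyte oxidase, rose at 48 h (0.77 ± 0.10, adjusted p = 0.0106). Of 4 inhibitory receptors for class I none was called, and 2 were higher at 48 h at an unadjusted p under 0.05. The log2 fold change of Pirb was 0.50 at 48 h (adjusted p = 0.0687) and that of Lilrb4a 0.31 (adjusted p = 0.112). At 72 h they were 0.01 (adjusted p = 0.980) and -0.07 (adjusted p = 0.706).

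The 10 members ran together over the arrays. As a description over 9 arrays that include the group differences, each member had a Pearson r with the mean of the other members of 0.831 (Tap2) to 0.993 (Tap1). Tap1 and Psmb9, which share the stretch printed above, had r = 0.979, and the neighbours Psmb8 and Tap2 had 0.843. The transporter chains Tap1 and Tap2 had 0.809. Nlrc5 had 0.948 with H2-K1 and 0.949 with B2m, which lies on another chromosome. Arrays share group, processing and any admixed cells, so these values hold no test.

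The genes most like the mean of the members, out of 22178 compared over the 9 arrays, were Nmi (r = 0.984), Parp9 (0.980), Ogfr (0.980), Uba7 (0.978), Irgm1 (0.977) and Gbp9 (0.977). Nmi binds STAT proteins, Uba7 activates the ubiquitin-like protein ISG15, and Irgm1 and Gbp9 are interferon-induced GTPases. Gbp9, for example, had a log2 signal of 4.05, 4.23 and 5.17 in the controls, 6.62, 6.49 and 5.16 at 48 h, and 6.50, 7.22 and 6.53 at 72 h. At 72 h Gbp9 rose by 2.26 ± 0.442 (adjusted p = 0.0421), Nmi by 0.91 (adjusted p = 0.0486), Parp9 by 1.15 (adjusted p = 0.0486) and Ogfr by 0.57 (adjusted p = 0.0425). Uba7 (0.86, adjusted p = 0.0665) and Irgm1 (1.71, adjusted p = 0.0981) missed the threshold.

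**Figure D4:**
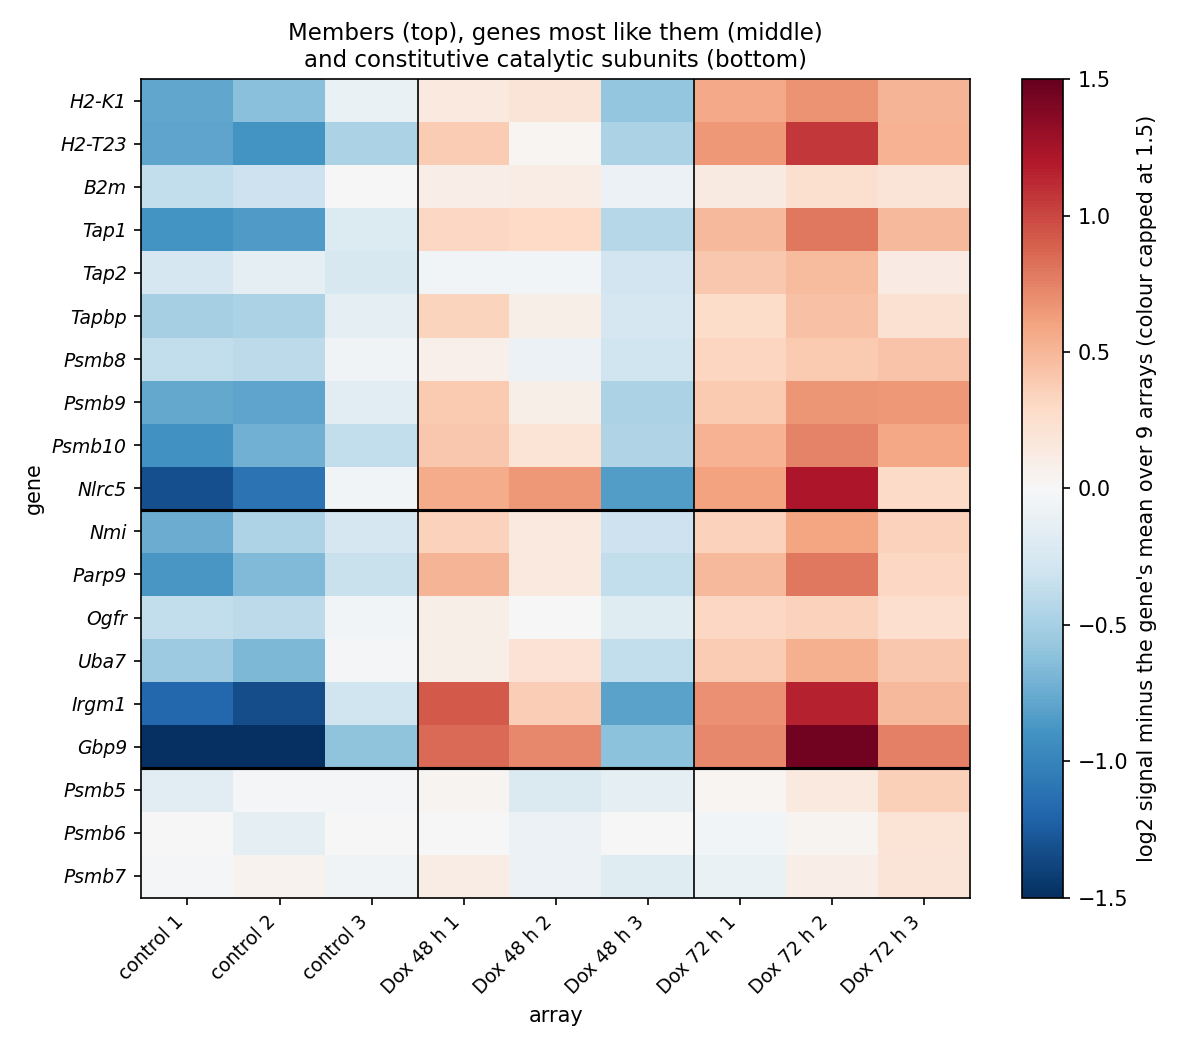
Log2 signal minus the gene's mean over 9 arrays (colour, capped at 1.5 in both directions) for the 10 members, the 6 genes most like them and the 3 constitutive catalytic subunits (y axis) on each array (x axis). Control 3 lies above the other controls in the 6 genes and in every member but Tap2, and Dox 48 h 3 is below each of these genes' means, while Psmb5, Psmb6 and Psmb7 stay pale.

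Lymphocytes and platelets also express class I genes, and their markers were read beside the members. The summed signal of 6 B cell markers (log2) was 8.18 to 8.32 in control, 8.40 to 8.46 at 48 h and 8.69 to 9.31 at 72 h, and 1 of the 6 rose at 72 h, Cd79b (0.68, adjusted p = 0.0329). For 8 T cell markers the range was 7.09 to 7.67 in control and 7.17 to 8.56 at 72 h, and for 6 NK cell markers 6.03 to 6.15 and 6.26 to 6.94, with no call. For 4 platelet markers it was 7.10 to 8.38 in control, 6.97 to 7.13 at 48 h and 7.52 to 9.46 at 72 h. Control 3 was the highest control for the T cell, NK cell and platelet markers, and Dox 72 h 3 the highest 72 h array for B cell, T cell, NK cell and platelet markers. Both arrays were also the highest of their groups for markers of red pulp macrophages, erythroid cells and plasma cells, given below. No marker reads 0 on an array; Ebf1 of B cells, Eomes of NK cells and Xcr1 of dendritic cells, named with their values known, lay at 2.85 to 3.41 on all 9 arrays, below each array's median. The centred mean of the 10 members was 0.40 on Dox 72 h 3, beside 0.43 and 0.67 on the other 72 h arrays. For Psmb8 it was the highest of all arrays (10.76). Without Dox 72 h 3 the median of the 10 members at 72 h was 1.11, with 2 called. Without control 3 the median was 1.32, with 7 called, and without both arrays, a setting chosen after seeing the data, the median was 1.32 and none was called among 7 arrays. In that fit the log2 fold change was 1.697 for H2-T23, 1.45 for Psmb10, 1.51 for Tap1 and 2.12 for Nlrc5. Dox 48 h 3, the low 48 h array, had summed B cell markers of 8.40, beside 8.46 and 8.42 on the other 48 h arrays, and summed T cell markers of 7.15, beside 7.01 and 7.15. The part of these cells in the result was not tested.

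Markers of the leukemia cells moved as well. Csf1r, a receptor of monocytes, rose by 1.02 at 48 h (adjusted p = 0.00279) and was higher than control at 72 h too (2.00-fold, adjusted p = 0.00461), and Ly6c2 by 0.72 at 72 h (adjusted p = 0.0301). Mpo and Kit, genes of immature myeloid cells, fell by 1.22 (adjusted p = 0.0294) and 1.36 (adjusted p = 0.00261) on the log2 scale at 48 h. Ptprc, the pan-leukocyte marker CD45, rose by 0.52 at 48 h (adjusted p = 0.0369). Of the other lists, Irf4 rose at 48 h (1.55, adjusted p = 0.00907) and Sdc1 at 72 h (0.64, adjusted p = 0.00740) among 5 plasma cell markers. Bst2, a marker of plasmacytoid dendritic cells that interferon also raises, rose at 72 h (1.78, adjusted p = 0.0301), 1 of 5 in its list. Of 8 markers of mature neutrophils, Ly6g rose at 48 h (1.19, adjusted p = 0.00785) and S100a9 fell by 0.81 at 72 h (adjusted p = 0.0141). None of the markers of conventional dendritic cells (5), red pulp macrophages (8), erythroid cells (4) or endothelial and stromal cells (7) was called at either time. The summed signal of the endothelial and stromal markers (log2) was 9.16 to 9.22 in control, 8.90 to 9.20 at 48 h and 9.40 to 9.65 at 72 h. For the plasmacytoid dendritic cell markers, Bst2 included, it was 8.06 to 8.18, 8.46 to 8.76 and 8.82 to 9.04. The summed signals of both lists thus lay above control at 72 h without overlap. A sum weighs the brightest markers most. The median log2 fold changes at 72 h were 0.075 for the endothelial and stromal markers (6 of 7 positive) and 0.047 for the plasmacytoid dendritic cell markers (3 of 5 positive). For the mature neutrophil markers the summed signal was 12.25 to 12.56 in control and 11.61 to 11.98 at 72 h, without overlap in the other direction. Their median was -0.206, with 2 of 8 positive. The control and 72 h ranges of the summed markers overlapped for conventional dendritic cells (9.20 to 9.45 and 9.35 to 10.01), red pulp macrophages (8.99 to 10.14 and 9.06 to 10.09) and erythroid cells (7.93 to 8.44 and 7.67 to 8.45). For red pulp macrophages and erythroid cells, control 3 and Dox 72 h 3 were the upper ends. They were also the upper ends for plasma cell markers (9.99 to 10.23 in control and 10.12 to 10.48 at 72 h). Dox 72 h 3 was the highest 72 h array for conventional dendritic cell and for endothelial and stromal markers too. The part of these changes in the members' result was not tested.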

How the data were processed

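RNA of each of the 9 sorted samples was read on 1 Affymetrix Mouse Gene 2.0 ST array. The deposited log2 values, 1 per probe set, were normalized between arrays by the authors. The study's methods name the oligo package and RMA, whereas the submitters' processing notes name MAS5 (version not given); the values ran on a log2 scale with near-equal array medians, and which method made them stays unknown. They were used as deposited, without a detection call. The number of arrays limits the precision.

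Of 41345 probe sets, 23521 had a single gene symbol in the platform annotation. Genes were represented by the brightest such probe set, and all 10 members were found by Entrez identifier in RefSeq (GRCm38.p6). Groups were compared with limma 3.58.1 in R 4.3.3 (1 mean per group, 9 arrays, no covariate, eBayes, two-sided, Benjamini-Hochberg over all probe sets, threshold 0.05). Values after ± are standard errors of the model. The procedure was tested on simulated data. No pair of arrays held identical values. Lists, 15 of pathway genes and 12 of cell markers, were described by counts and medians only. Named were the members, Psmb5 to Psmb7, up to 4 called genes of each pathway list with the smallest F-test p (up to 2 where none was called), the 6 genes most like the members, and called markers; Klf4 was named as an induced factor, and for other genes of the lists the text says that it was picked with its value known. The members and lists were chosen with earlier results of these data known. Scanner files and protein sequences were not used here.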

Additional observations from a re-analysis of the deposited data

How the results depend on the processing

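Over all alternatives, no log2 fold change of a member changed sign. Of 570 results (10 members, 3 comparisons and 19 alternatives), 508 kept the direction and the side of the threshold. A call was lost in 45 and gained in 17, and 0 reversed. The alternatives are overlapping refits of the same arrays. They include 2 chosen after seeing the data, which left out control 3 with Dox 48 h 3 or with Dox 72 h 3. Some gains came from the first of these, which is no support. Most of the 570 results had no call to lose, since only 5 members were called, all at 72 h against control. Of 19 alternatives for each, the call was lost in 5 for H2-T23, 8 for Psmb10, 9 for Psmb8, 10 for Tap1 and 13 for Tap2. At 72 h against control, 5 members were called as reported, 4 after quantile normalization, 5 with eBayes trend and robust, with array weights or with the mean of all probe sets of a gene, and 7 with each array centred on its median. The count was 8 with only probe sets above the median level and 2 with only the 2 groups compared. Over all probe sets tested in them, 719 and 184 rose, beside 479 as reported. With the replicate number as a block none was called at 72 h, by the F test or at 48 h. The calls over all probe sets at 72 h then fell from 479 higher and 549 lower to 133 and 125. The labels do not say whether the numbers pair the samples. The deviations of 9 same-numbered pairs had an r of -0.302 to 0.209, and 2 exceeded 0.1. No differently numbered pairs were set beside them, so these values cannot decide whether the samples were paired. Without 1 array at a time the count was 0 to 7 for 72 h against control and 0 for each of the other comparisons of 2 groups. Without control 3 and Dox 48 h 3 together, chosen after seeing the data, 3 members were called at 48 h and 8 at 72 h. Those arrays lay nearest the other group in the members, so these calls are no support. Without control 3 and Dox 72 h 3, also chosen after seeing the data, none was called at 72 h. The median log2 fold change was then 1.32 over 7 arrays. The F test called 1 member as reported, 3 with centring, with trend and robust or with array weights, 4 with probe sets above the median level, and 0 to 2 without single arrays. The cause was not tested. The changes of the subunit ratios kept their sign without single arrays, for example 0.32 to 0.49 for Psmb8 over Psmb5, 0.91 to 1.22 for Psmb9 over Psmb6 and 1.09 to 1.38 for Psmb10 over Psmb7 at 72 h. With 3 arrays per group, a member that missed the threshold is not shown to be unchanged.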
